A study of Mus musculus with 8 samples.

Results

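*Sox5*, *Sox6* and *Sox9*, the transcription factor trio of cartilage formation, were taken by symbol as 3 of the 28001 features counted in 8 single-cell libraries of mouse embryonic forelimb. All 3 were found in every library. Each value below rests on raw unique molecular identifiers (UMIs, one per captured RNA molecule) in the 53085 of 57469 barcodes that held at least 3000 UMIs with no more than 10% from mitochondrial genes. The study traced the descendants of cells that expressed *Hic1*, a transcriptional repressor gene, when tamoxifen was given. Sorted tdTomato+ cells fill 6 libraries, 1 each at E11.5, E12.5, E13.5 and E14.5 and 1 each from the proximal and the distal forelimb segment at E16.5. The remaining 2 are replicate libraries of the whole E11.5 limb, tdTomato+ and tdTomato- cells together.

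The sorted embryos were Hic1CreERT2/CreERT2 with the reporter Rosa26LSLtdTomato/tdTomato, all embryos were C57BL/6J, and dams of all groups received 7.5 mg of tamoxifen at embryonic day 10. CreERT2 is driven from the *Hic1* locus, and in the sorted embryos both *Hic1* alleles carry it. Forelimbs of several embryos were pooled for each sorted library. The whole limb labels give the reporter but not the number of alleles. Cells of other lineages (blood, endothelium) were depleted in the sort by surface markers. The paper describes the whole limb cells captured as lineage-negative too. The proximal segment ran from the distal stylopod through the elbow to the proximal zeugopod, and the distal segment held the distal zeugopod and the autopod. Limbs up to E12.5 were dissociated with dispase and later ones with collagenase, pronase and DNase. The reagent kit was v2 through E13.5 and in the whole limb, and v3 from E14.5, so stage and kit cannot be told apart at that step. Kept cells numbered 3165 to 11109 per library, with 31500092 to 234893903 UMIs in all and medians of 6788 to 18473 UMIs per cell, no pair of libraries shared more than 48 barcodes, and tdTomato was detected in 87.8% to 99.9% of sorted cells against 3.46% and 3.63% of whole limb cells. A sorted group is 1 library, so intervals on its values are exact Poisson or binomial 95% intervals that cover counting error only.

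*Sox9* encodes a SoxE factor required for mesenchymal condensation and for chondrocyte differentiation. *Sox5* and *Sox6* encode closely related SoxD factors that have no activation domain of their own and act beside SOX9 at the enhancers of cartilage genes. *Col2a1*, which encodes the main fibrillar collagen of cartilage matrix, is among the best known targets of the trio.

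The genes differ in architecture (GRCm38, GENCODE vM21). *Sox5* (ENSMUSG00000041540) spans chr6:143828425-144781977 on the minus strand with 14 transcripts from 12 starts, and *Sox6* (ENSMUSG00000051910) spans chr7:115470872-116038796 on the minus strand with 16 transcripts from 13 starts. *Sox9* (ENSMUSG00000000567) is a compact gene at chr11:112782224-112787760 on the plus strand with 1 transcript. *Col2a1* (ENSMUSG00000022483) lies at chr15:97975602-98004695 on the minus strand. The libraries read RNA 3′ ends, so the starts in use were not resolved. Among the antisense genes within *Sox5* and *Sox6*, the highest count in all 8 libraries together was 194 UMIs, for *Sox6os*.

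Of *Sox5*, *Sox6*, *Sox9* and *Col2a1*, 2 matched the promoter table used (RefSeq, GRCm38.p6), *Sox5* with 1 window and *Sox6* with 6. The 250 bases upstream of a RefSeq start are shown for *Sox5* and for the most upstream *Sox6* start whose window overlaps no annotated exon, because both levels moved together from stage to stage and Sox proteins are known to bind one core motif. Both starts lie inside the annotated gene. Capitals mark matches on either strand to ACAAT or ACAAAG, core letters bound by Sox proteins; neither motif contains the other.
Sox5, chr6:143947107-143947356, minus strand: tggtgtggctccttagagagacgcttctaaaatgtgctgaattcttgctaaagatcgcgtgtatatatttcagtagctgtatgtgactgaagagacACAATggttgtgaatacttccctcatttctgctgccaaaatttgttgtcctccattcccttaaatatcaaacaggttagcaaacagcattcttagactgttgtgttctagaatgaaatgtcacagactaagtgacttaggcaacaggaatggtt
Sox6, chr7:116031048-116031297, minus strand: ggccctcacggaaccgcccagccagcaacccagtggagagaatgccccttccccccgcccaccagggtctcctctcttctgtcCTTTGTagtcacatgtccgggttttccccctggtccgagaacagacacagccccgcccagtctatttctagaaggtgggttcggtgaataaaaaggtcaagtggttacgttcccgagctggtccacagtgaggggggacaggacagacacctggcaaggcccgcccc
The *Sox5* window held 1 match to ACAAT and none to ACAAAG, and the *Sox6* window held 1 match to ACAAAG and none to ACAAT. Of 32817 such windows in the table, 27.7% held ACAAT and 16.5% held ACAAAG, so a match is common and describes the letters only.

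All members were present at the earliest stage sampled, so their onset and its order were not covered. Levels are given as CPM, a gene's UMIs in all kept cells scaled to the library total. From E11.5 through E14.5, in 1 library a day, *Sox5* stood at 49.7, 40.4, 64.4 and 22.2 CPM, with 18.4 in the proximal and 32.0 in the distal segment at E16.5, and 52.7 and 54.6 in the whole limbs. Its highest level was at E13.5 and its lowest in the proximal segment. Neighbours with overlapping counting intervals were the 2 whole limb libraries with each other and the first of them with sorted E11.5 cells.

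Over the same days *Sox6* stood at 52.4, 39.4, 65.4 and 16.8 CPM, with 12.9 in the proximal and 21.9 in the distal segment, and 25.8 and 29.1 in the whole limbs. It followed the same order of stages as *Sox5* among sorted libraries, with no overlap between neighbours, but both whole limb libraries lay below every sorted library up to E13.5. *Sox9* stood at 339, 200, 272 and 125 CPM, with 124 in the proximal and 79.9 in the distal segment, and 221 and 239 in the whole limbs. Unlike its partners, *Sox9* was highest at E11.5 and lowest in the distal segment, and only its E14.5 and E16.5 proximal levels overlapped. Such sums alone do not separate fewer expressing cells from less RNA per cell, and shares of cells are given below.

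**Figure D1:**
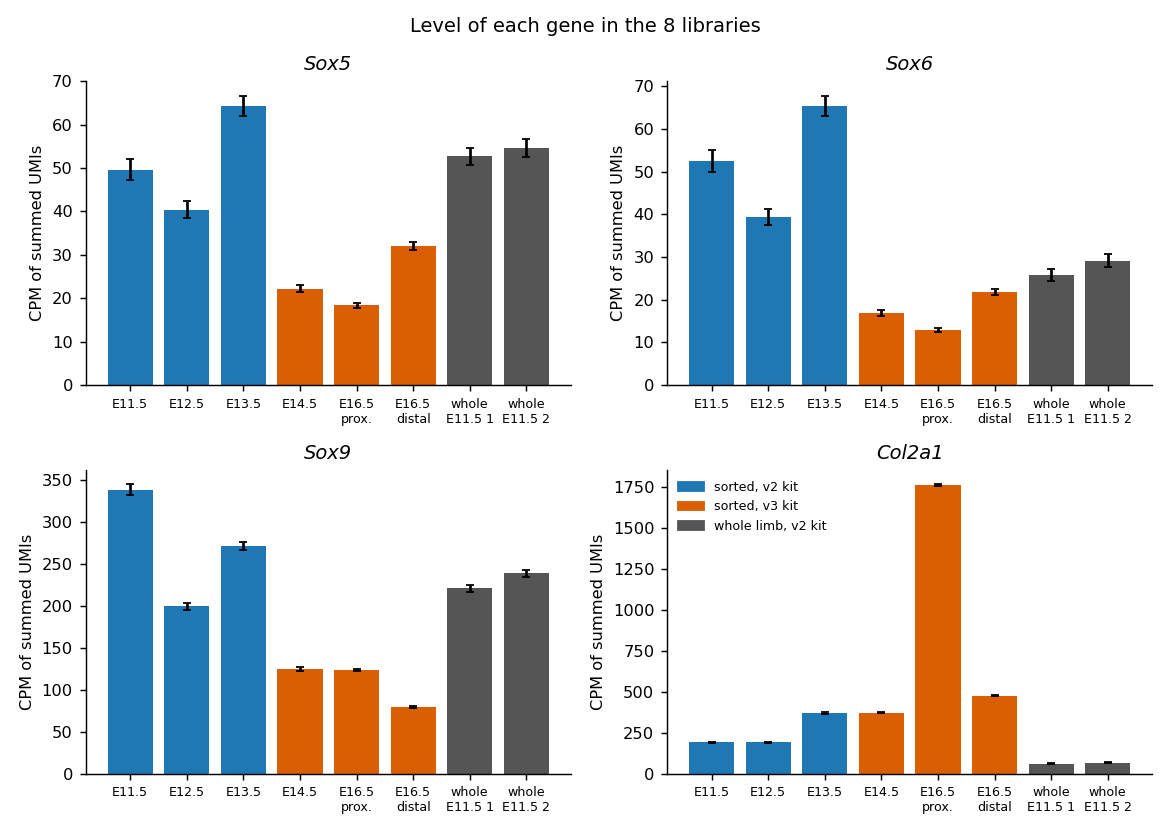
Bars give CPM of summed UMIs in each of the 8 libraries, from 0, with exact Poisson 95% intervals (counting error only). The 3 Sox genes stand at 64.4, 65.4 and 272 CPM at E13.5 and at 22.2, 16.8 and 125 CPM at E14.5, while *Col2a1* stands at 371 and 373 CPM and at 1765 CPM in the proximal E16.5 segment.

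Steps between single libraries carry no test, and a 2-fold change on CPM + 1 among genes at 5 CPM or more was used as a rule of size. From E11.5 to E12.5 all 3 were lower, *Sox5* by 1.23-fold, *Sox6* by 1.33-fold and *Sox9* by 1.69-fold, and from E12.5 to E13.5 all 3 were higher, by 1.59-, 1.66- and 1.36-fold. The dissociation enzymes changed between E12.5 and E13.5, so stage and dissociation cannot be told apart in that rise. Over both steps together no member passed 2-fold, a size that 5.26% of 10454 genes passed upward and 3.49% downward. From E13.5 to E14.5 all 3 members passed 2-fold downward, where 5.07% of 10522 genes did and 4.47% went up. *Sox6* was 3.88-fold lower (95% counting interval 3.68 to 4.10), *Sox5* 2.90-fold (2.75 to 3.05) and *Sox9* 2.18-fold (2.13 to 2.23), beside a median log2 ratio over all genes of -0.18. The kit changed at this step, and its part was not tested. CPM uses library totals alone. TMM factors, which rescale those totals by a trimmed mean over genes, were 1.14 at E13.5 and 0.981 at E14.5. Scaling by them would make the 3 falls smaller, and whether all 3 would still pass 2-fold was not tested.

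*Col2a1* followed them only in part, and rose with them from E12.5 to E13.5 (1.94-fold). Day by day it stood at 192, 191, 371 and 373 CPM up to E14.5, at 1765 CPM in the proximal and 477 in the distal segment, and at 61.8 and 67.0 in the whole limbs. Between E13.5 and E14.5 the ratio was 1.01 (0.988 to 1.02). From E11.5 to the proximal E16.5 segment it was 9.20-fold higher, while *Sox5*, *Sox6* and *Sox9* were 2.70-, 4.08- and 2.74-fold lower. All 3 passed the 2-fold size downward in that comparison, as did 28.0% of 10903 genes, with 13.8% upward, so a difference of this size was common. TMM factors were 1.11 at E11.5 and 0.836 in the proximal segment. Scaling by them would make these falls smaller too and was not run.

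The segments split the trio. *Sox5* was 1.74-fold (1.67 to 1.82) and *Sox6* 1.70-fold (1.62 to 1.78) higher in the distal than in the proximal segment, and *Sox9* was 1.55-fold (1.52 to 1.58) lower. None of them passed 2-fold, which 4.42% of 10352 genes did upward and 4.39% downward, whereas *Col2a1* was 3.70-fold lower distally. The distal library was counted with a later Cell Ranger version, whose part was not tested.

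The remaining SoxD and SoxE genes were low. *Sox13*, the third SoxD gene, reached at most 2.86 CPM among sorted libraries, at E11.5. *Sox8*, a SoxE gene, stood at 15.2 CPM at E11.5 and at 6.68 and 6.67 CPM in the E16.5 segments. *Sox10*, a SoxE gene of neural crest derivatives, peaked at 3.04 CPM at E13.5 and was under 0.41 CPM in the other sorted libraries.

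Of 50 chondrogenic genes present in the files (matrix collagens, aggrecan and matrilins, BMP and hedgehog signals and cartilage transcription factors), 20 of 37 that reached 5 CPM were at least 2-fold higher and 0 lower at E13.5 than at E11.5, with a median log2 ratio of 1.17 against -0.09 over all genes, of which 5.26% were higher and 3.49% lower. Those higher included the matrix genes *Col9a1*, *Col11a2*, *Acan*, *Hapln1* and *Matn1* and the joint ligand gene *Gdf5*. The dissociation enzymes changed between these days, and their part was not tested. From E13.5 to E14.5, when the trio was lower, 7 of 40 were higher and 8 lower (4.47% and 5.07% of all genes), with a median of -0.04 against -0.18, and *Matn4*, *Wwp2*, *Gdf5* and *Col9a1* were among the lower. In the distal segment 19 of 45 were lower and 7 higher than in the proximal one (4.39% and 4.42% of all genes), with a median of -0.53 against 0.13. From E11.5 to the proximal E16.5 segment 26 of 43 were higher and 6 lower (13.8% and 28.0% of all genes), with a median log2 ratio of 2.38 against -0.47 over all genes, opposite in sign to the trio.

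To compare shares of cells across depths, each cell was thinned to 3000 UMIs. By day up to E14.5, *Sox9* was detected in 49.4%, 31.6%, 38.3% and 20.6% of sorted cells, then in 16.3% of the proximal and 12.95% of the distal segment, and 39.9% and 41.8% of whole limb cells. *Sox5* was detected in 13.1%, 11.1%, 15.6%, 6.06%, 4.23% and 6.405% of sorted cells in the same order, and in 15.03% and 14.5% of whole limb cells. *Sox6* was detected in 13.8%, 10.2%, 14.99%, 4.76%, 3.45% and 5.24% of sorted cells and in 7.80% and 8.32% of whole limb cells. From E13.5 to E14.5, where the kit changed, UMIs per cell with the gene went from 1.38 to 1.27 for *Sox5*. They went from 1.45 to 1.22 for *Sox6* and from 2.35 to 1.96 for *Sox9*, smaller falls than those of the shares. Without thinning, shares were larger in every library, for *Sox9* 31.7% to 72.2%.

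Shares in clusters low in the trio give a scale for these values. In the larger myogenic-like cluster of the whole limbs (302 and 284 cells, with medians of 12987.5 and 12140 UMIs against 8850.5 and 8593.5 in their libraries), *Sox9* was detected in 18.5% and 18.3% of cells, *Sox5* in 1.99% and 1.06% and *Sox6* in 2.65% and 1.41%. The lowest *Sox9* share of any cluster of at least 200 cells was 12.2%, 14.1% and 5.59% on the days from E12.5 to E14.5, 1.44% in the proximal and 2.03% in the distal segment. Whole limb endothelial-like cells (19 and 24 cells) had *Sox9* in 10.5% and 8.33%, too few cells to set a background level. At E11.5 the sorted cells fell into only 2 clusters of that size, with *Sox9* in 47.2% and 53.2% of cells. When the E11.5 libraries were clustered alone, 193 sorted cells fell in a cluster led by *En1*, *Rarres2*, *Gdnf* and *Ebf2*, with *Sox9* in 20.2%, *Sox5* in 3.63% and *Sox6* in 1.04% of cells.

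Members were found in the same cells more often than the product of their separate shares, in all 8 libraries and for all 3 pairs. At 3000 UMIs per cell, cells with both *Sox5* and *Sox6* exceeded the product of the single shares 2.02-, 3.44-, 2.91- and 5.09-fold by day up to E14.5, 5.99-fold in the proximal and 3.45-fold in the distal segment, and 2.34- and 2.25-fold in the whole limbs. For *Sox5* with *Sox9* the excess ran from 1.34-fold in the second whole limb library to 4.41-fold in the proximal segment, and for *Sox6* with *Sox9* from 1.45-fold in the same whole limb library to 3.93-fold in the proximal segment. Every interval lay above 1. The size of the excess depended on the depth and the cells taken, and its upper limit rises as the shares fall. Over the 24 ratios it ran from 1.34 to 5.99 as given, from 1.15 to 6.37 in cells thinned to 6000 UMIs and from 1.14 to 4.69 without thinning, and among cells with a *Col2a1* UMI it was 1.15 to 2.06. No doublet caller was run, and without the 5% of cells with most UMIs the ratios ran from 1.36 to 5.96.

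Cells with all 3 members were few: 95, 141, 348, 88, 82 and 82 in the sorted libraries in order of stage and segment, and 109 in each whole limb library. They made up 5.68% of cells at E13.5 (95% interval 5.12 to 6.29) and 0.738% in the proximal E16.5 segment (0.588 to 0.915). Over the product of the 3 single shares they stood at 3.35 at E11.5, 6.36 at E13.5 and 31.0 in the proximal segment (24.6 to 38.4). The upper limit of such a ratio rises as the shares fall, so it does not rank the stages. Within clusters the product was taken for pairs only.

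In every library but the distal E16.5 one, more than 55% of cells with *Sox5* or *Sox6* also had *Sox9*. In the whole limbs, however, *Sox9* was found in 36.9% and 39.4% of cells without *Sox5* and in 38.3% and 40.1% without *Sox6*. At E13.5, *Sox9* was detected in 77.5% of cells with *Sox6* and 72.8% of cells with *Sox5*, against 31.4% and 31.9% of cells without them. In the proximal E16.5 segment these shares were 64.2% and 72.1%, against 14.6% and 13.9%. In the distal segment they were lower, 38.6% and 53.6%, against 11.5% and 10.2% of cells without them. Seen the other way, *Sox6* was found in 30.3% of *Sox9* cells at E13.5 and 13.5% in the proximal segment. *Sox9* gave more UMIs per cell, so the asymmetry cannot be read as one gene preceding another.

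Part of the co-detection lay between clusters. These were built without the trio and without *Col2a1*, and taking the product of shares within clusters, an alternative added after the data were seen, left ratios of 1.04 to 1.06 in the proximal E16.5 segment with all 3 intervals including 1. Most of that product lay in the chondrocyte-like cluster, 317 of 326 cells for *Sox5* with *Sox9*. *Sox9* was detected in 84.0% of its cells, so both pairs with *Sox9* had little room above 1 there. At E13.5 the ratios within clusters were 1.36, 1.18 and 1.17 for *Sox5* with *Sox6*, *Sox5* with *Sox9* and *Sox6* with *Sox9*, at E14.5 2.34, 1.76 and 1.80, and in the distal segment 1.45, 1.58 and 1.49. Within clusters of the whole limbs the ratios were 1.13 to 1.42. The intervals lay above 1 for all 3 pairs in 7 of 8 libraries, the proximal E16.5 segment being the exception. For *Sox5* with *Sox9*, most of the distal product lay in a cluster led by *Sema3e* and *Cytl1* (151 of 184 cells). Of its distal cells 39.5% had none of the trio. At E14.5 most lay in a cluster led by *Six2* and *Matn4* (115 of 173 cells). Whether these excesses lie between kinds of cell inside such clusters was not tested. A cluster at resolution 1 can hold more than 1 kind of cell, and no other resolution was run for these ratios. In the mitotic-like cluster at E13.5 they were 2.39, 1.71 and 1.67. In the E13.5 cluster led by *Wwp2* they were 1.18, 1.06 and 1.05. There both intervals with *Sox9*, itself detected in 80.1% of cells, included 1. Among sorted E11.5 cells, 1299 and 1818 of 3165 lay in 2 clusters with similar shares of each member, so there the ratios (2.01, 1.38 and 1.499) could hardly differ from those of the library.

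**Figure D2:**
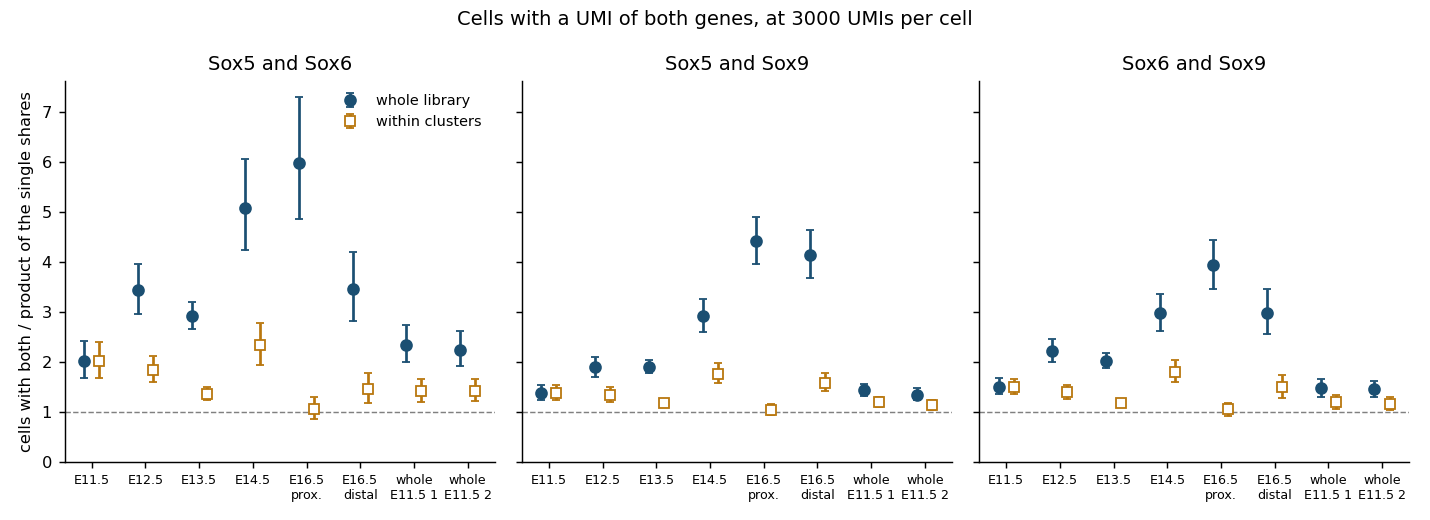
Each point is the number of cells with UMIs of both genes divided by the number given by the product of the single shares, over the library (filled) or summed within clusters (open), with 95% intervals for counting error. All library ratios lie above 1, up to 5.99, and within clusters the proximal E16.5 ratios come down to 1.04 to 1.06.

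*Col2a1* was more often detected the more members a cell held. At E13.5, *Col2a1* was detected in 21.6% of cells with none of the trio, 44.4% with *Sox9* only, 54.5% with *Sox5* or *Sox6* but no *Sox9*, 84.1% with *Sox9* and 1 SoxD gene, and 94.5% of cells with all 3. In the proximal E16.5 segment the same classes gave 10.6%, 42.9%, 51.0%, 95.2% and 100% (82 of 82 cells). At E11.5 they gave 22.4%, 41.4%, 49.8%, 65.1% and 78.9%. The order of these 5 classes was the same in all 8 libraries. In epithelial-like cells of the proximal segment led by *Krt1*, a keratinocyte gene, *Col2a1* was detected in 6.89% of 610 cells (median 46140.5 UMIs against 18473 in the library), and clusters of fibroblast-like, dermal fibroblast-like and unnamed cells there stood at 7.20% to 8.08%, so the 10.6% with none of the trio lies near the level of these clusters. Most of their cells had none of the trio, so the nearness is partly built in. The tenocyte-like (27.4%) and osteogenic-like (35.6%) clusters, also mostly without the trio, stood higher. The lowest share of any cluster of at least 200 cells was 36.6% at E11.5, 15.6% at E13.5 and 2.03% in the distal segment, and the part of free RNA in these shares was not tested. The classes with *Sox9* only and with SoxD but no *Sox9* had overlapping intervals in 5 libraries (sorted E11.5, both E16.5 segments and both whole limbs), and the classes with *Sox9* and 1 SoxD gene and with all 3 in 3 libraries (sorted E11.5, E12.5 and proximal E16.5).

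The amount of *Col2a1* moved further than its detection. Mean *Col2a1* per cell of 3000 UMIs was 0.318 with none and 2.14 with all 3 at E11.5, 0.308 and 4.44 at E13.5, 0.274 and 14.9 at E14.5, 0.457 and 75.7 in the proximal segment, and 0.158 and 23.9 in the distal segment. In the whole limbs the means were 0.102 and 1.21 in replicate 1 and 0.115 and 1.43 in replicate 2. In both E16.5 segments the means of the middle classes came in the other order, 17.5 with *Sox9* only against 15.4 with SoxD but no *Sox9* proximally and 3.42 against 2.29 distally. In sorted E11.5 cells 37.4% of *Sox5*, 29.6% of *Sox6* and 44.3% of *Sox9* UMIs lay in cells with no *Col2a1* at this depth. Such cells were 62.0% of that library. In the whole limbs the UMI shares were 61.7%, 53.1% and 68.6% in replicate 1 and 59.4%, 51.2% and 68.02% in replicate 2. There cells with no *Col2a1* were 83.8% and 82.5% of all cells.

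**Figure D3:**
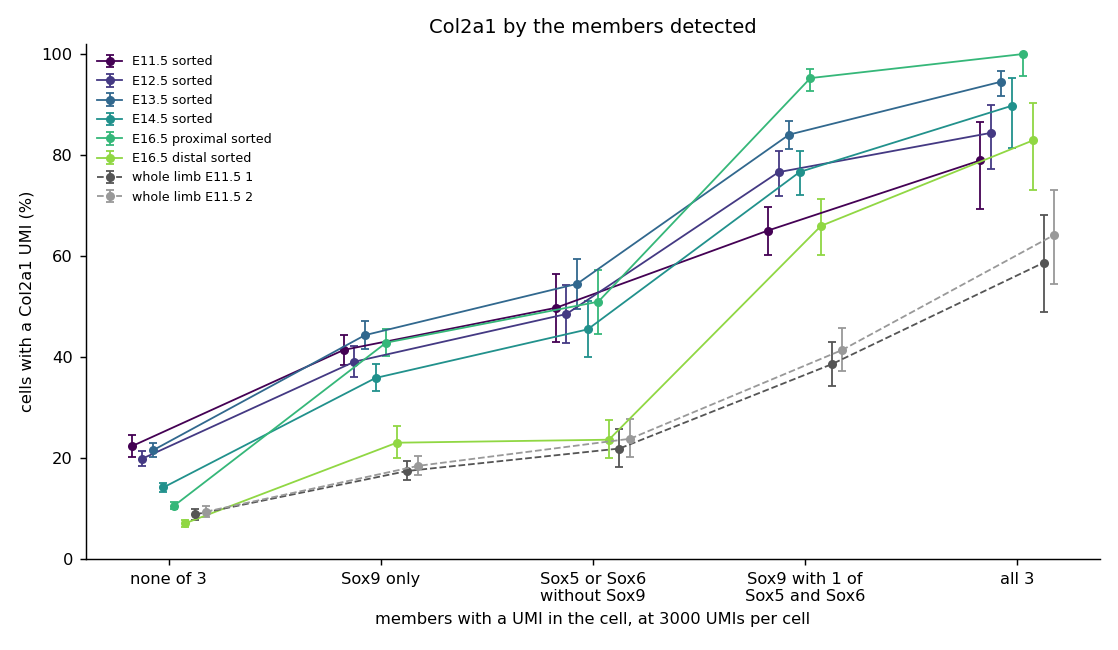
Points give the percentage of cells with a *Col2a1* UMI among cells with none, some or all of the trio, 1 line per library, with exact binomial 95% intervals. Every line is lowest at the left (7.08% to 22.4%) and highest at the right (58.7% to 100%).

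Taken gene by gene, mean *Col2a1* was higher in cells with the member than without it in all 8 libraries. For *Sox9* the ratio went from 2.41 at E11.5 to 5.61 at E13.5, 11.7 at E14.5, 34.0 in the proximal and 27.8 in the distal segment, with 2.91 and 2.66 in the whole limbs. For *Sox5* it went from 2.34 to 4.0, 11.6, 14.9 and 16.6 over the same sorted libraries, and for *Sox6* from 2.88 to 4.53, 7.32, 10.5 and 9.59. At E12.5, not in these series, it was 3.43 for *Sox5*, 3.70 for *Sox9* and 4.87 for *Sox6*, the last above its E13.5 value.

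Read from the collagen side, members became more frequent with *Col2a1*. At E13.5 *Sox6* was detected in 3.83% of cells without *Col2a1*, 17.5% with 1 to 2 UMIs, 51.7% with 3 to 9 and 47.5% with 10 or more. *Sox9* went from 23.0% through 44.7% and 82.9% to 91.9%. In the proximal E16.5 segment *Sox5* went from 0.680% through 2.30% and 14.7% to 37.5%, and *Sox6* from 0.936% to 24.4%. Cells with 10 or more *Col2a1* UMIs numbered 99 at E13.5, 314 at E14.5 and 963 in the proximal segment. They held *Sox6* in 47.5% (37.3 to 57.8), 27.4% and 24.4% of cases, and *Sox9* in 91.9%, 83.8% and 85.0%. This class has no upper limit and the kit changed after E13.5, so its cells are not alike across stages. In the proximal segment 79.3% of *Sox5*, 64.5% of *Sox6* and 66.3% of *Sox9* UMIs lay in cells of this class, which were 8.67% of the segment. In the distal segment 45.4%, 58.7% and 43.1% of the members' UMIs lay in cells with no *Col2a1*, which were 87.8% of its cells.

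The same order was seen inside single clusters. In the E13.5 cluster led by *Wwp2*, *Fam19a2*, *Pxylp1* and *Matn4*, cells above the cluster's median *Col2a1* (613 cells) had *Sox5* in 48.3%, *Sox6* in 53.2% and *Sox9* in 88.1% of cells, against 38.0%, 40.0% and 73.5% at or below it (737 cells). In the chondrocyte-like cluster of the proximal segment, the shares above the median were 43.3%, 30.0% and 90.4%, against 27.0%, 17.4% and 77.6%. The intervals above and at or below the median did not overlap for any of the 3 genes in either cluster.

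In each sorted library 1 cluster held the largest part of the UMIs of all 3 members. At E11.5 it was mitotic-like, with 51.3% of the *Sox5* UMIs in 41.0% of cells. Its CPM lay near that of the early progenitor-like cells for *Sox5* (50.4 and 49.0) and *Sox6* (52.7 and 52.5), and above it for *Sox9* (384 and 294). Clusters of the sorted time course were named where at least 3 listed markers were raised and the leading genes held no more markers of another class. They placed all 3 highest in 2 of 26 clusters. The cluster led by *Wwp2* and *Matn4* (1461 cells, 92.4% from E13.5) had 205 CPM of *Sox5*, 228 of *Sox6*, 740 of *Sox9* and 1204 of *Col2a1*, and ranked first for *Sox5* and *Sox6*. It had 4 of 13 chondrocyte markers raised and stayed unnamed because of its leading genes, which include *Gdf5* and *Erg*. *Wwp2* is a ubiquitin ligase gene that harbours a microRNA of cartilage, and *Matn4* encodes a cartilage matrix protein. The chondrocyte-like cluster (1078 cells, 99.7% from the proximal segment), led by *3110079O15Rik*, *Comp*, *Matn1* and *Ucma*, had 178, 101.3, 967 and 19643 CPM and ranked first for *Sox9* and *Col2a1*. These 2 clusters came from libraries made with different kits, and the part of the kit was not tested.

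At E14.5 the peak lay in a cluster led by *Six2*, *Matn4*, *Mia* and *Otor* (1319 cells, with 70.8, 52.8, 330 and 1715 CPM for the trio and *Col2a1*). It was named tenocyte-like because the tenocyte list had the largest share of its markers raised. Its leading genes include cartilage genes, among them the listed chondrocyte marker *Matn4*. At resolution 2 clusters drawn mostly from E14.5 included a chondrocyte-like cluster led by *Mia*, *Matn4*, *Six2* and *Otor* (671 cells, 9 of 13 markers) and a tenocyte-like one (629 cells). At resolution 1 the *Six2* cluster held 49.7% of the *Sox5*, 48.9% of the *Sox6* and 41.2% of the *Sox9* UMIs of E14.5 in 15.6% of that library's cells. At E13.5 the *Wwp2* cluster held 57.4%, 62.8% and 49.1% in 22.05% of cells. In the proximal segment the chondrocyte-like cluster held 83.9%, 68.0% and 67.5% in 9.68% of cells. Its CPM exceeded that of the other cells of the segment 55.2-fold for *Sox5*, 22.4-fold for *Sox6* and 21.97-fold for *Sox9*.

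The other classes of the proximal segment differed by member. The segment as a whole stood at 18.4, 12.9 and 124 CPM. Dermal fibroblast-like clusters were far below this for each member and held 0.429 CPM of *Sox5*, 0.858 of *Sox6* and 9.90 of *Sox9* over 1506 cells. Fibroblast-like cells (2440 cells) held 1.12, 0.922 and 46.4 CPM, and osteogenic-like cells (216 cells) 9.68, 12.9 and 85.3 CPM. Tenocyte-like cells held 16.04, 17.5 and 39.9 CPM in this clustering (893 cells). In that of the E16.5 segments they held 6.90, 14.8 and 24.7 CPM (830 cells). *Sox6* in tenocyte-like cells lay above the segment's level in the first. In the second its interval (12.9 to 16.9) overlapped that of the segment (12.4 to 13.3). Pericyte-like cells held 28.01 CPM of *Sox5* in the first clustering (173 cells) and 13.6 in the second (376 cells).

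Outside the clusters richest in *Col2a1* the members did not share all their cells. In epithelial-like cells led by *Krt14* (356 cells, 91.01% from the proximal segment), *Sox6* at 34.7 CPM and *Sox9* at 216 CPM each ranked 6 of 26 clusters, while *Sox5* at 3.64 CPM ranked 18. *Col2a1* ranked 7 there, at 159 CPM. *Sox9* was detected in 32.1% of the 324 proximal cells among them, against 16.3% in the segment as a whole. The study treated *Krt14* and *Krt1* epithelial cells at E16.5 as contaminants and removed them, whereas the levels of sorted libraries here include them. In the E16.5 segments, a dermal fibroblast-like cluster led by *9330159F19Rik*, *Kcna4*, *Cadps* and *Jakmip1* (689 cells, 99.1% distal) ranked 3 of 23 for *Sox6* at 82.8 CPM, 14 for *Sox5* at 3.35 and 18 for *Sox9* at 17.05. *Sox6* was detected in 16.5% of its distal cells at 3000 UMIs and *Sox5* in 0.146%.

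The reverse held in a fibroblast-like cluster led by *Cldn3*, *Olfml2a*, *Pi16* and *Dact2* (517 cells, 97.1% distal). It ranked 3 for *Sox5* at 94.7 CPM, 18 for *Sox6* at 1.48 and 14 for *Sox9* at 34.0, with *Sox5* in 18.9% and *Sox6* in 0 of 502 distal cells, for which the exact interval reaches 0.732% of cells with a UMI. Both clusters held little *Col2a1*, at 14.6 and 17.7 CPM. In the distal segment the *Cldn3* cluster gave 20.8% of the *Sox5* UMIs and the *Kcna4* cluster 25.4% of the *Sox6* UMIs. A small cluster led by *Car3*, *Agt*, *Wfdc18* and *Fabp4* (128 cells, 99.2% proximal) ranked 4 for *Sox9* at 129 CPM and 16 for *Sox5* at 3.07.

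The distal segment held 33 chondrocyte-like cells, and the largest part of its trio lay in another cluster. An unnamed cluster led by *Sema3e*, *Cytl1*, *Btc* and *Lrp1b* (1014 cells, 97.8% distal) ranked 2 of 23 for all 3, at 181 CPM of *Sox5*, 83.1 of *Sox6*, 441 of *Sox9* and 3114 of *Col2a1*. It had 11 of 13 chondrocyte markers raised and was left unnamed because of its leading genes. *Cytl1* encodes a cytokine-like protein of chondrocytes. This cluster held 54.5% of the *Sox5*, 37.1% of the *Sox6* and 53.9% of the *Sox9* UMIs of the segment in 11.7% of cells. The chondrocyte-like cluster of that set (1088 cells, 97.0% proximal) stood at 183, 104, 971 and 19984 CPM.

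**Figure D4:**
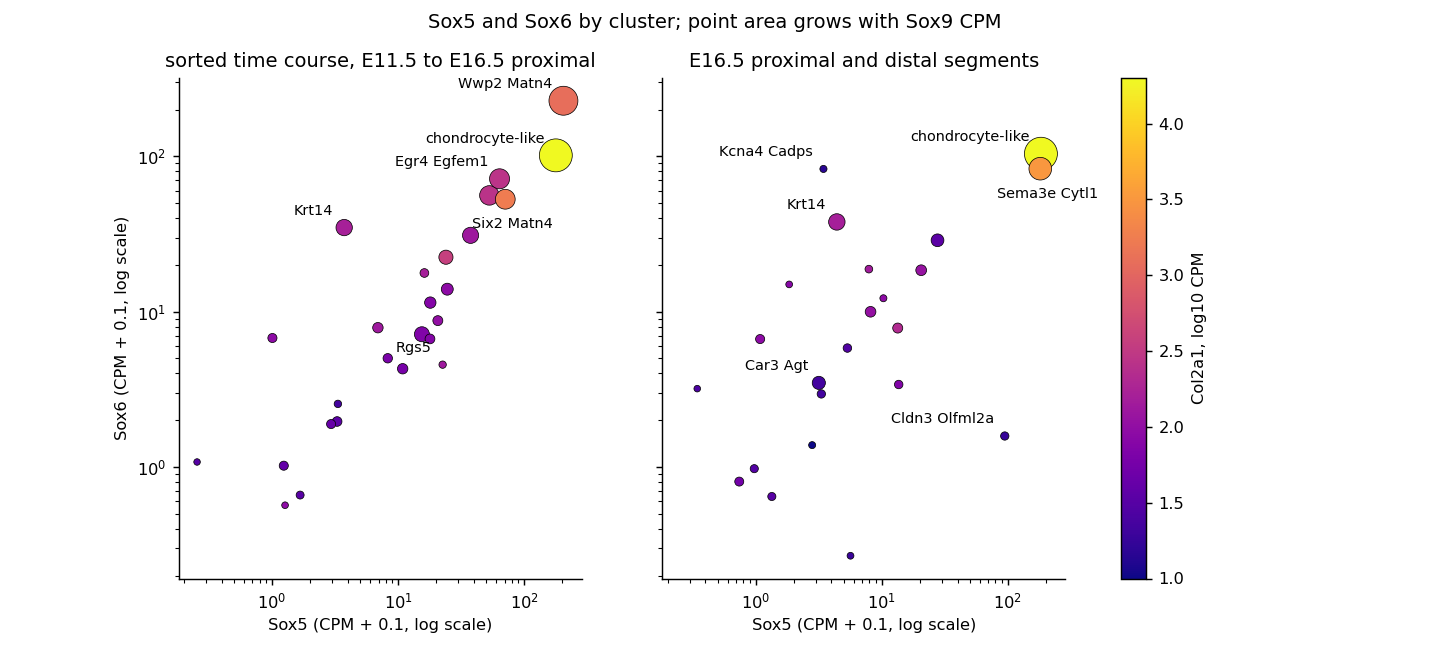
Each point is a cluster of the sorted time course (left) or of the E16.5 segments (right), placed by its *Sox5* and *Sox6* CPM + 0.1 on log axes, with area growing with *Sox9* and colour giving log10 *Col2a1* CPM. The clusters led by *Wwp2* (205 and 228 CPM) and chondrocyte-like (178 and 101.3 CPM) lie at the top right, while the *Kcna4* (3.35 and 82.8 CPM) and *Cldn3* (94.7 and 1.48 CPM) clusters lie far off the diagonal.

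Over the 26 clusters of the time course, among 11195 genes at 10 CPM or more in some cluster, *Sox9* and *Sox6* were each other's nearest gene (Pearson r = 0.90 of log2(CPM + 1)). After *Sox9*, the genes nearest *Sox6* were *Sox5* (0.87), *Msi2*, *Matn4*, *Wwp2* and *Rtkn*. After *Sox6*, those nearest *Sox9* were *Sgk3*, *Rtkn*, *Wwp2*, *Rab11fip4* and *Matn4*. *Sox5* was nearest to *Fam53b* (0.88), *Wwp2*, *Gm13111*, *Ypel2*, *Sox6* and *Gdf5*. *Col2a1* stood at place 8 for *Sox6* (0.81), 27 for *Sox9* (0.77) and 40 for *Sox5* (0.78), and by Spearman correlation at places 2 (0.87), 159 (0.71) and 68 (0.77). Of these clusters 18 drew over 90% of their cells from 1 library, so these points share depth and kit, and the values are a description.

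Whole limbs at E11.5 gave the only comparison with replicates. It asks how *Hic1*-lineage cells differ from limb mesenchyme at large, on cells outside muscle, epithelial, endothelial, blood and glial clusters, and the single sorted library was assumed to vary like the others. The paper found tdTomato+ cells at E11.5 mostly in the proximal limb, so lineage and position cannot be told apart here. Distal limb mesenchyme-like cells numbered 22 in the sorted library and 2169 in the first whole limb library, where they held 14.1 CPM of *Sox6*. Nothing in the labels says that the replicates came from separate litters, so the p-values measure the spread between these libraries, which may be technical. *Sox6* stood at 52.7 CPM in sorted cells against 27.3 and 30.7 in the whole limbs, higher by 0.68 ± 0.11 (log2, SE; edgeR quasi-likelihood test, Benjamini-Hochberg adjusted p = 2.52e-08).

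*Sox9* stood at 340 CPM against 237 and 255, higher by 0.29 ± 0.10 (edgeR adjusted p = 0.0130), but DESeq2 gave an adjusted p of 0.0526, and over the 5 alternatives with a test the adjusted p ran from 0.000521 to 0.121. *Sox5* went the other way, at 49.8 CPM against 56.7 and 58.6, lower by 0.39 ± 0.11 on the log2 scale (edgeR adjusted p = 0.000691), and without TMM scaling, which moved the median of all genes to 0.19, its change was -0.21 with an adjusted p of 0.106; in the other 4 alternatives with a test it ran from 0.00586 to 0.0437. Of 15073 genes tested, 26.8% were higher and 26.5% lower, so passing the threshold was common here and the 2 members higher and 1 lower are read against that. *Col2a1* was 2.51-fold higher, at 193 CPM against 65.0 and 70.4 (edgeR adjusted p = 4.09e-45).

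Among 46 chondrogenic genes tested, 19 were higher and 17 lower in sorted cells, with a median of 0.11 against 0.01 over all genes. Those at 5 CPM or more and higher were led by the proteoglycan *Epyc* (3.87), the hormone *Pthlh* (3.67), the BMP antagonist *Chrd* (2.98), *Col9a2* (2.14) and *Gdf5* (1.48), followed by *Col2a1*, *Matn4*, *Sox8*, *Lect1* and *Wwp2*. Lower were *Pax1*, a transcription factor gene (-4.45), *Runx2* (-1.57), *Col9a1* (-1.34), the receptor gene *Pth1r* (-1.26) and *Bmpr1b* (-1.23), then *Fgfr3*, *Bmp2*, *Gli3*, *Nog* and *Bmpr2*. Genes of cartilage matrix thus stood on both sides, *Col9a2* and *Col2a1* up and *Col9a1* down.

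**Figure D5:**
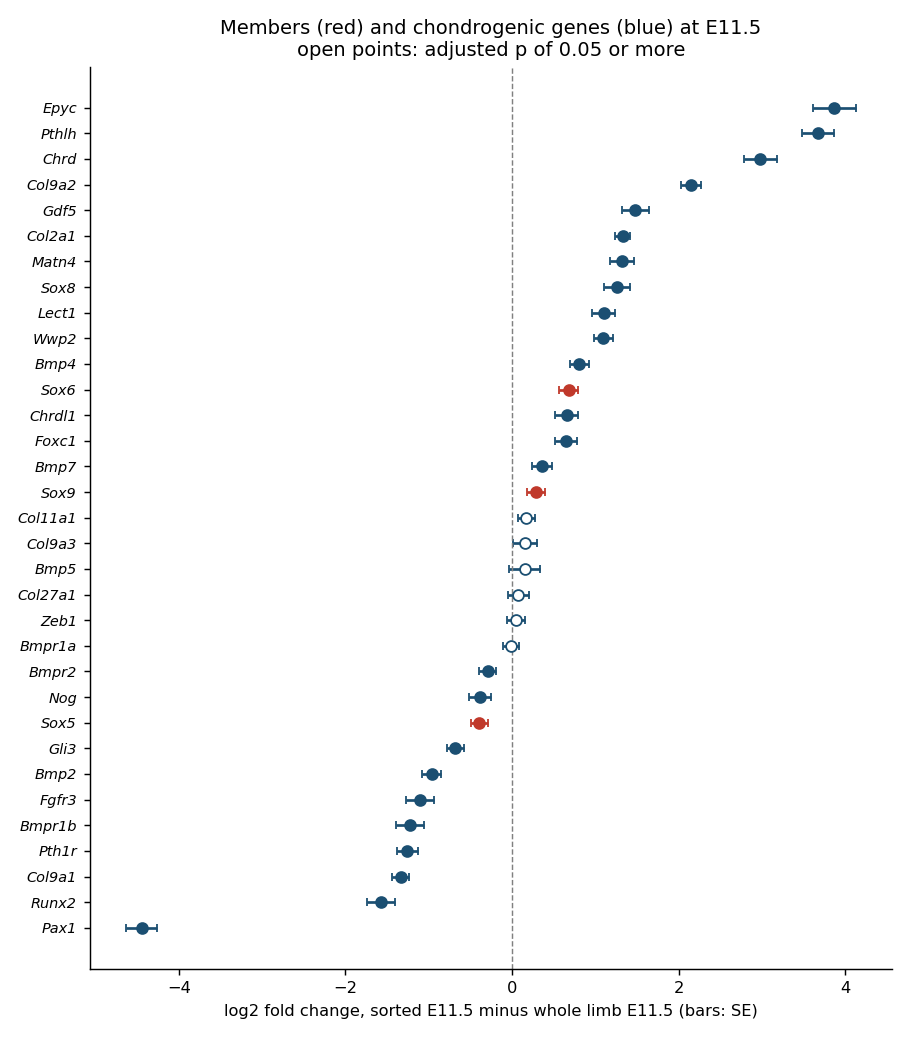
Points give the log2 fold change of sorted E11.5 over whole limb E11.5 cells with its SE for the 3 members (red) and for chondrogenic genes at 5 CPM or more in a library (blue), filled where the edgeR adjusted p was under 0.05. *Sox6* (0.68) and *Sox9* (0.29) lie right of 0 and *Sox5* (-0.39) left of it, between *Epyc* at 3.87 and *Pax1* at -4.45.

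In whole limbs the CPM of all 3 was highest in 1 cluster. In the chondrocyte-like cluster led by *Fxyd3*, *Sema3d*, *Matn4* and *Lect1* (517 and 607 cells of the 2 whole limbs), *Sox5* stood at 176 and 167 CPM, *Sox6* at 113 and 112, *Sox9* at 528 and 564 and *Col2a1* at 333 and 330. It ranked first of 23 for all 4 genes. It held the largest part of the *Sox5* (19.6% and 19.9%) and *Sox6* UMIs (25.8% and 24.9%), while that of *Sox9* lay in a distal limb mesenchyme-like cluster (15.3% and 16.9%). Distal limb mesenchyme-like clusters, marked by *Lhx9*, *Msx2* and *Hoxd13*, held 42.3 and 46.5 CPM of *Sox5*, 14.1 and 14.1 of *Sox6*, and 218 and 239 of *Sox9*, with *Col2a1* at 18.9 and 19.9. Of 3165 sorted cells, 1135 and 1684 lay in a pair of clusters with almost no whole limb cells, at 54.5 and 55.4 CPM of *Sox5*, 59.6 and 60.3 of *Sox6* and 425 and 320 of *Sox9*, and only 12 lay in the chondrocyte-like cluster, so sorted and whole limb cells were not compared cluster by cluster.

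Within the sorted libraries, cells with a *Hic1* UMI had fewer members than cells without one. At E13.5 (417 cells with *Hic1*) *Sox5* was detected in 5.04% against 16.3%, *Sox6* in 3.60% against 15.8% and *Sox9* in 25.2% against 39.2%. In the proximal E16.5 segment (715 cells) the shares were 0.559% against 4.48%, 0.559% against 3.65% and 9.93% against 16.8%. The direction was the same for each member in all 6 sorted libraries, with overlapping intervals for all 3 at E11.5. In whole limbs only 13 and 16 cells had a *Hic1* UMI, which allows no comparison.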

How the data were processed

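Single-cell 3′ RNA was measured in 8 libraries of mouse forelimb, each a table of UMI counts per gene and barcode. These are raw counts as the authors deposited them, made with Cell Ranger on mm10; the file headers give version 3.0.2 for 5 sorted libraries and 6.0.1 for the distal E16.5 library, and none for the whole limbs. Barcodes with at least 3000 UMIs and at most 10% mitochondrial UMIs were kept, and no doublet caller was run. Groups follow the sample labels.

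UMIs were summed per library or cluster (CPM, exact Poisson intervals). Shares of cells used 3000 UMIs drawn per cell (exact binomial intervals). Both kinds of interval cover counting error only. Clusters (scanpy 1.11.5, leidenalg 0.10.2) used 2000 variable genes, 50 components, 25 neighbours and resolution 1, leaving out 75 genes, the trio and *Col2a1* among them. A cluster was named where at least 3 listed markers were raised, unless its leading genes held more markers of another class or its cells were shallow. Sorted and whole limb E11.5 cells were compared with edgeR 4.0.16 (R 4.3.3; TMM, quasi-likelihood, Benjamini-Hochberg); DESeq2 1.42.0 and limma 3.58.1 were alternatives. Members of the chondrogenic list at 5 CPM or more with an adjusted p under 0.05 were named, at most 10 per direction, and 6 genes per member by correlation over clusters.

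Members, lists and tests were chosen with earlier results of these data known.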

Additional observations from a re-analysis of the deposited data

How the results depend on the processing

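No level, ratio or fold change of a member changed sign under the alternatives run. At E11.5, sorted over whole limb, leaving out a whole limb library gave log2 changes of -0.43 to -0.35 for *Sox5*, 0.59 to 0.79 for *Sox6* and 0.22 to 0.36 for *Sox9*, each from 1 library against 1 and so with no test. *Sox6* passed the threshold under every alternative with a test. *Sox5* did not without TMM scaling (-0.21, adjusted p = 0.106), and *Sox9* did not with DESeq2 (0.27, adjusted p = 0.0526) or without a filter on low counts (0.27, adjusted p = 0.121). Of all genes, 4040 were higher and 3988 lower, against 2017 higher and 2846 lower with DESeq2, 2330 higher and 2503 lower without the filter, and 5186 higher and 2336 lower without TMM, so which direction held more genes depended on the setting. The chondrogenic median (0.11 against 0.01 over all genes) fell below that of all genes without the filter (0.0022 against 0.0109). Of the chondrogenic list 25 to 36 genes passed. The cause of these differences was not tested.

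Between single libraries, the log2 ratio of *Sox9* at E13.5 over E11.5 (-0.32) was -0.28 with cells weighted equally and -0.36 with TMM. Distal over proximal, *Sox5* (0.80) stood at 0.60 without epithelial-like clusters, 0.71 without the 5% of cells with most UMIs and 0.63 with TMM, *Sox6* (0.76) at 0.59 with TMM, and *Sox9* (-0.63) at -0.71 without epithelial-like clusters and -0.80 with TMM. The other steps between single libraries, E13.5 to E14.5 among them, were not rerun with TMM or another alternative. By Spearman correlation *Col2a1* took a nearer place to *Sox5* (68) than to *Sox9* (159), against 40 and 27 by Pearson. The Pearson r itself was 0.778 with *Sox5* and 0.774 with *Sox9*, so only the places turned. At clustering resolution 2 the chondrocyte-like ratio was 61.9 for *Sox5* and 19.4 for *Sox9*. Co-detection stayed above 1 in 8 of 8 libraries for every pair under every alternative, between 1.15 and 2.06 among cells with *Col2a1* only and between 1.04 and 2.34 within clusters, where the 3 intervals of the proximal E16.5 segment included 1. Of its 24 ratios, 21 moved beyond their interval within clusters, 24 with *Col2a1* cells only, 23 without thinning and 16 at 6000 UMIs. No paired analysis was possible because only the whole limb libraries carry replicate numbers. With 1 library per sorted group, the spread between embryos is unknown.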
